A study of Homo sapiens with 8 samples.

Results

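The 52 genes described here encode the machinery that licenses, opens and copies DNA in S phase, and the enzymes that supply its nucleotides. They were taken from a list of symbols, and a probe set stood for a gene where the platform annotation gave it that symbol and no other. Where a gene had several probe sets, the one with the highest mean log2 signal was used. All 52 genes were found on the 6 h arrays, among 11963 genes with a single symbol, and 45 on the 12 h arrays, among 7713. The cells were MRC5, a line of human diploid lung fibroblasts, given 8-oxoguanine, an oxidised form of the base guanine, at 10 µM, or the solvent alone as a mock. At 6 h there was 1 array of 8-oxoguanine cells and 1 of mock cells. At 12 h there were 3 arrays of 8-oxoguanine cells and 3 of mock cells, each from an RNA extract that the labels number 1 to 3 and call a technical replicate. The cells carried no other treatment or genetic change in the labels, and the treated cells were compared with mock cells of the same time only.

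DNA replication begins with licensing. The origin recognition complex (ORC) marks origins in G1 phase, and CDC6 and CDT1 load the MCM ring onto them. In S phase CDC45 and the GINS complex join the ring to form the active helicase. Polymerase alpha with primase starts each strand, and polymerases delta and epsilon extend it, held by the sliding clamp PCNA. Many of these genes are transcribed late in G1 phase under E2F transcription factors, so their messages are scarce in resting cells and plentiful in dividing ones.

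The arrays gave 1 fluorescence signal per probe set, on a linear scale that the authors had levelled between arrays, and their number limits the precision of every value. Median signals were 157 to 165 on the 12 h arrays, and 143 on the 8-oxoguanine array and 155 on the mock array at 6 h. The fibroblast markers fitted the label: all 9 measured at 12 h passed the filter on dim signals, while of 12 markers of epithelial, endothelial, blood and muscle cells 9 were under it. The signals of those 12 summed to 587 to 695 on the 8-oxoguanine arrays and 672 to 878 on the mock arrays. Of the 12, the keratin KRT19 fell, with a log2 fold change of -1.27 (adjusted p = 0.00145), and 2 did not pass. Of the 9 fibroblast markers, LUM (log2 fold change 1.07, adjusted p = 0.0034) and PDGFRB (0.30, adjusted p = 0.0446) rose and S100A4 fell (-0.58, adjusted p = 0.00302). The actin controls compare a 3′ probe set with a 5′ one as a measure of RNA integrity, and their ratio was 1.03, 1.07 and 0.999 on the 8-oxoguanine arrays and 0.995, 0.889 and 0.946 on the mock arrays, so the groups did not overlap. The same ratio of the GAPDH controls overlapped, at 0.802 to 0.843 on the 8-oxoguanine arrays and 0.779 to 0.826 on the mock arrays. The part of the actin ratio and of these markers in the results below was not tested. The labels do not tell whether the 12 h extracts were drawn from different cultures. All p-values, SDs and SEs below therefore reflect the spread among these extracts alone, which the labels call technical replicates. Where n = 3 is given it counts extracts. None of these values can be taken to measure the spread between cultures. In bulk RNA, fewer cells in S phase and less message per cell cannot be told apart.

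At 12 h replication genes of all 5 steps fell in 8-oxoguanine cells, and none of the genes tested rose. At least 2 fell in each step. In the polymerase step, POLE2 lost its call with any single array left out other than 8-oxoguanine replicate 2, which left 1. Of the 45 genes on the array, 40 had a signal above the filter limit, a mean log2 value at the 40th percentile of the array or higher, which is a signal of 93.9. Of these, 16 fell and none rose at an adjusted p under 0.05 in limma's moderated test over all 5248 probe sets, and 24 did not pass. At an unadjusted p under 0.05 the counts were 22 lower and 0 higher, where 14% of all named genes tested were lower and 14.7% higher. Among all 4670 named genes tested, 6.64% fell and 6.49% rose, and among all probe sets 6.65% fell and 6.59% rose. The log2 fold change was below 0 for 38 of the 40 genes. Their median was -0.40, against 0.005 for all named genes tested (each counted once, by its brightest probe set). Of the 40 tested, 10 fell by 1.5-fold or more, where 2.51% of all named genes tested did so. In 23 genes every 8-oxoguanine array lay below every mock array, which held for 16.6% of all named genes tested, and in 1 gene, RFC1, every 8-oxoguanine array lay above, which held for 17.2%. The median over the 40 genes, taken on each array against the mock mean, was -0.49, -0.30 and -0.38 on the 8-oxoguanine arrays and -0.016, -0.013 and 0.023 on the mock arrays. The shift was present on all 3 treated arrays.

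**Figure D1:**
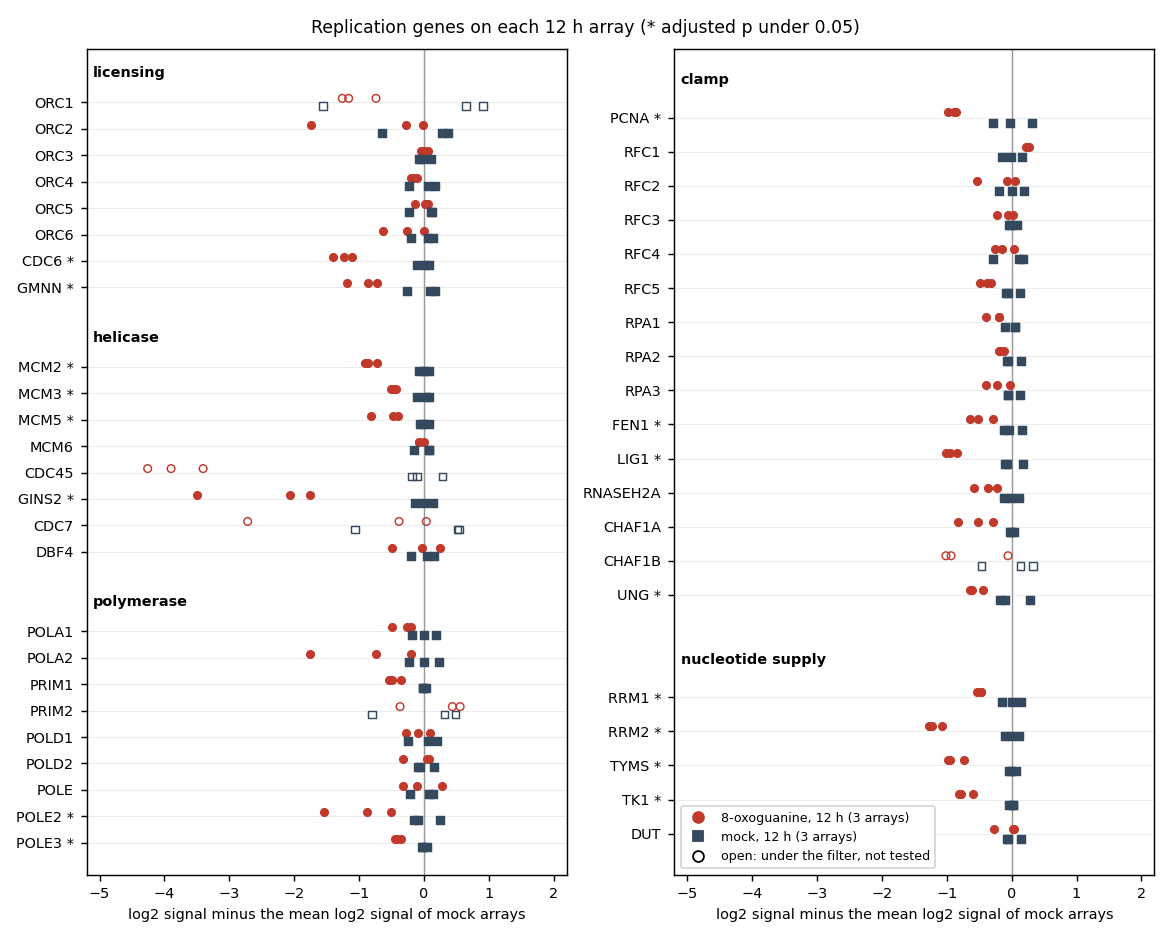
Log2 signal on each 12 h array minus the mean log2 signal of the mock arrays, for the 45 replication genes on the array, with circles for the 3 8-oxoguanine arrays, squares for the 3 mock arrays, open marks for the 5 genes under the filter and a star for the 16 genes that fell. The circles stand left of the squares without overlap in 23 of the 40 genes tested, while the ORC subunits, MCM6, POLE, POLD1 and DUT overlap.

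**Figure D2:**
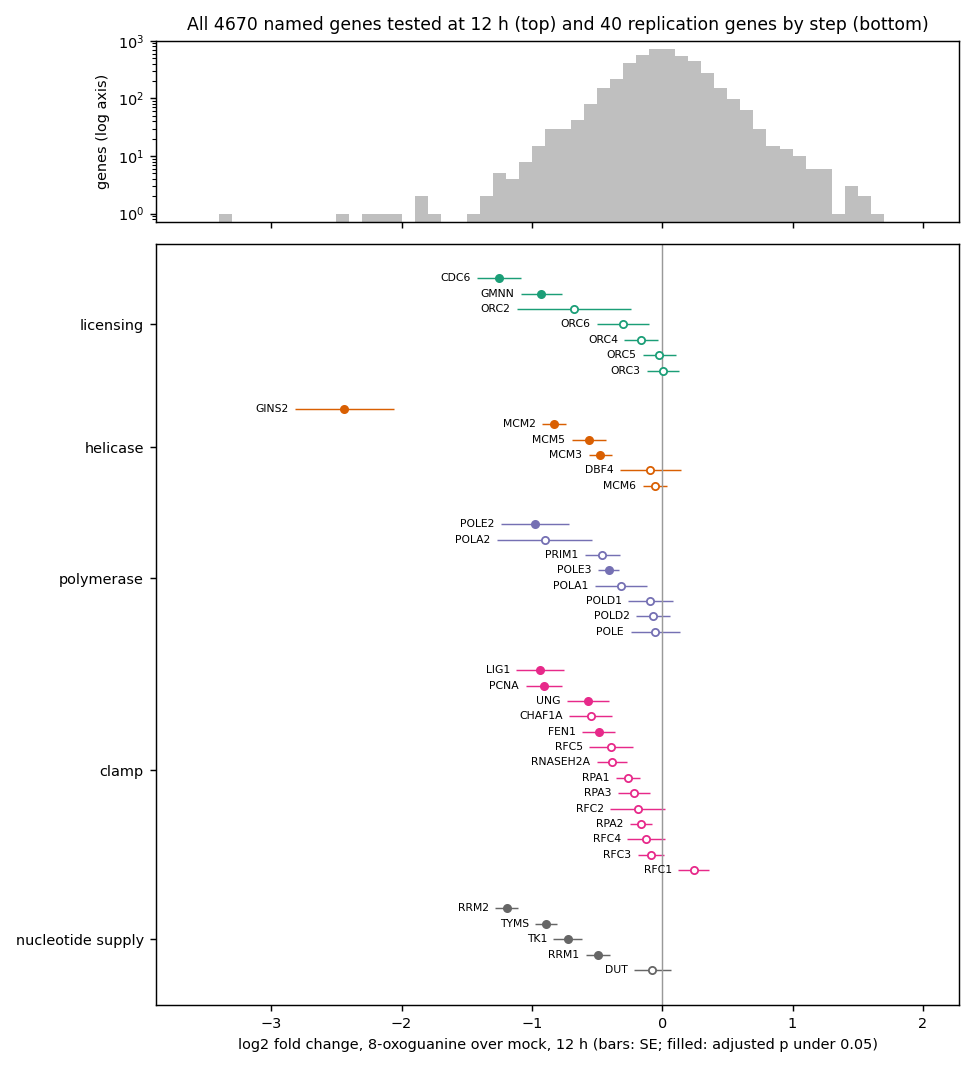
Top, the number of genes (log axis) by log2 fold change at 12 h for all 4670 named genes tested; bottom, the log2 fold change of 8-oxoguanine over mock with its SE for the 40 replication genes tested, by step, filled where the adjusted p was under 0.05. The filled points lie between -0.41 (POLE3) and -2.44 (GINS2), and each step holds both filled and open points.

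The stretches just upstream of the gene starts are shown because E2F factors, which drive many of these genes in dividing cells, are known to bind there. For 47 of the 52 genes the RefSeq table of GRCh38.p14 held a window of 300 bases, 250 before the start and 50 after it. Each window was searched on both strands for the 4 E2F-type words TTTCCCGC, TTTCGCGC, TTTGCCGC and TTTGGCGC, and for CCAAT, the word of the factor NF-Y. Below are the 160 bases before the start of 7 genes, written 5′ to 3′ on the gene's strand in lower case, with the words found on either strand in capitals. GINS2, PCNA, TYMS and LIG1 fell and hold an E2F-type word, RRM2 fell and holds CCAAT alone in this stretch, and MCM6 and ORC3 did not pass the test and hold both.
GINS2: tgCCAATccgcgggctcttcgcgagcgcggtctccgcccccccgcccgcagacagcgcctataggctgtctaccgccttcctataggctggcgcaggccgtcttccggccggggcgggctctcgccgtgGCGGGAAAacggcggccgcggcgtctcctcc
PCNA: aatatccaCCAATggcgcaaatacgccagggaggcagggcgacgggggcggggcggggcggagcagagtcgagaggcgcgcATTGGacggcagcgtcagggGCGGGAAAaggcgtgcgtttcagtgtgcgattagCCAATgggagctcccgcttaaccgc
TYMS: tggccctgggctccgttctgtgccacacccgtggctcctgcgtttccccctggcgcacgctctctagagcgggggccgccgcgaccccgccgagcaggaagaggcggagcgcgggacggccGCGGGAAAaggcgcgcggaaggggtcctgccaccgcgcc
LIG1: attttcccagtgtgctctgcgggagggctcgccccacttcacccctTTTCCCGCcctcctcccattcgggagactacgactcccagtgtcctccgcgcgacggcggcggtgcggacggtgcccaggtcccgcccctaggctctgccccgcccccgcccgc
RRM2: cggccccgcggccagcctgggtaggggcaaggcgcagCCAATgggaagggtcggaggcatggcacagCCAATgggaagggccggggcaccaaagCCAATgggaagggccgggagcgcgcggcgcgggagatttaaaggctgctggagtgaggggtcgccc
MCM6: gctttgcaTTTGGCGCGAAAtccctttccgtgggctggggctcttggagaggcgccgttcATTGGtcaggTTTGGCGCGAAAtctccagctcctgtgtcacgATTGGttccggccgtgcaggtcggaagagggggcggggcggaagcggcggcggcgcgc
ORC3: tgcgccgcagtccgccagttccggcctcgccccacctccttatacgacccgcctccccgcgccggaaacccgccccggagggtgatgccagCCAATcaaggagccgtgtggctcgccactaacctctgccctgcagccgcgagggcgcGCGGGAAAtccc
Their positions in GRCh38.p14 are GINS2 chr16:85688955-85689114 (minus strand), PCNA chr20:5126623-5126782 (minus strand), TYMS chr18:657493-657652 (plus strand), LIG1 chr19:48170345-48170504 (minus strand), RRM2 chr2:10122579-10122738 (plus strand), MCM6 chr2:135876444-135876603 (minus strand) and ORC3 chr6:87589975-87590134 (plus strand).

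An E2F-type word stood in 18 of the 47 windows, 38.3%, against 3.33% of all 27305 windows in the table and 4.91% of those of the named genes tested at 12 h. CCAAT stood in 25, 53.2%, against 35.7% of all windows. By word, TTTCCCGC stood in 1.66% of all windows, TTTCGCGC in 0.546%, TTTGCCGC in 0.564% and TTTGGCGC in 0.659%. Among the members that fell, 8 of 15 windows held an E2F-type word, and among those tested that did not pass, 6 of 22. In PCNA the word starts 59 bases before the gene start, in TYMS 39, in GINS2 31 and in LIG1 114. In RRM2 the stretch holds CCAAT 3 times, at 123, 93 and 66 bases before the start. MCM6, whose groups overlapped, holds 4 E2F-type words in 2 overlapping pairs, each pair reading TTTGGCGCGAAA. The word was therefore present in members that fell and in members that did not pass. MCM2 and CDC6 hold theirs after the start. Of the members that fell, GMNN, POLE3, FEN1, UNG, RRM1, RRM2 and TK1 hold none in this window. CCAAT stood in 7 of 15 windows of members that fell and in 13 of 22 of those tested that did not pass. A match is a description of letters and not a binding site shown here.

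In the licensing step, CDC6 and GMNN fell and the origin recognition complex did not pass. CDC6, the ATPase that loads the MCM ring with CDT1, had signals of 105, 96.8 and 85.8 on the 8-oxoguanine arrays, against 240.4, 231 and 212 on the mock arrays. The groups were well apart, with means of 95.8 ± 9.6 in 8-oxoguanine cells and 228 ± 14.4 in mock cells (SD, n = 3 each) and a log2 fold change of -1.25 (SE 0.17, adjusted p = 0.00152). GMNN, or geminin, which binds CDT1 and blocks a second round of loading, had signals of 240.3, 264 and 193 on the 8-oxoguanine arrays, against 469, 366 and 491 on the mock arrays. Its highest treated array lay below its lowest mock array, and its log2 fold change was -0.93 (SE 0.16, adjusted p = 0.00507). The 5 tested subunits of the origin recognition complex overlapped between the groups. ORC3 had the smallest change of the step, with signals of 230.3, 237 and 247 on the 8-oxoguanine arrays, against 257, 232 and 224 on the mock arrays and a log2 fold change of 0.006 (SE 0.13, adjusted p = 0.984). ORC5 was at -0.021 (SE 0.13), ORC4 at -0.16 (SE 0.13), ORC6 at -0.30 (SE 0.20) and ORC2 at -0.68 (SE 0.44). The spread of ORC2 was wide, since its treated arrays lay between 48.6 and 161. Its change was -0.36 with every signal under the filter limit raised to it, and -0.14 without 8-oxoguanine replicate 3. ORC1, the subunit whose abundance changes over the cell cycle, was under the filter, with 17.6, 18.8 and 25.2 on the 8-oxoguanine arrays, against 14.4, 65.8 and 79.0 on the mock arrays. CDT1 had no probe set of its own on the 12 h arrays.

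In the helicase step, 3 of the 4 MCM subunits tested fell, and GINS2 had the largest change of all 40 genes. MCM2, a subunit of the ring, had signals of 465, 451 and 513 on the 8-oxoguanine arrays, against 800.1, 894 and 845 on the mock arrays. Its groups were far apart against their spread, with means of 476 ± 32.6 in 8-oxoguanine cells and 847 ± 47.1 in mock cells (SD, n = 3 each) and a log2 fold change of -0.83 (SE 0.091, adjusted p = 0.000553). MCM3 had signals of 490.3, 518 and 501 on the 8-oxoguanine arrays, against 650, 739.5 and 711 on the mock arrays, a log2 fold change of -0.48 (SE 0.088, adjusted p = 0.00757). MCM5 had signals of 319, 338 and 251 on the 8-oxoguanine arrays, against 439, 467 and 426 on the mock arrays, a log2 fold change of -0.56 (SE 0.13, adjusted p = 0.0202). MCM5 lost its call without mock replicate 1 (adjusted p = 0.0526) and without mock replicate 2 (0.0525). MCM6, by contrast, had signals of 607, 637 and 604 on the 8-oxoguanine arrays, against 676, 677 and 572 on the mock arrays, which overlapped, and its log2 fold change was -0.056 (SE 0.095, adjusted p = 0.764). Whether MCM6 differed from its partners was not tested. MCM4 and MCM7 had no probe set of their own on the 12 h arrays.

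GINS2, a subunit of the GINS complex that joins the ring to polymerase epsilon, had signals of 115, 93.5 and 34.5 on the 8-oxoguanine arrays, against 430.1, 355 and 388 on the mock arrays. Even the highest treated signal was far below the lowest mock signal, with means of 81.1 ± 41.7 in 8-oxoguanine cells and 391 ± 37.8 in mock cells (SD, n = 3 each), and the log2 fold change was -2.44 (SE 0.38, adjusted p = 0.00312). Since 2 of the treated signals were under the filter limit, the size is uncertain, and it was -1.96 with every signal under 93.9 raised to it. CDC45, the other helicase cofactor, was under the filter because its treated signals were near the floor, with 11.0, 6.09 and 7.82 on the 8-oxoguanine arrays, against 103, 142 and 108 on the mock arrays. The groups did not overlap. Fitted without the filter, over all 8746 probe sets, its log2 fold change was -3.85 (SE 0.40, adjusted p = 0.00135), a size that rests on treated signals too dim to measure. Of the kinase that starts the helicase, the subunit DBF4 was at -0.092 (SE 0.23, adjusted p = 0.85), and the catalytic subunit CDC7 was under the filter, with treated signals between 16.8 and 113 and mock signals between 52.9 and 161. GINS1, GINS3 and MCM10 had no probe set of their own at 12 h.

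Among the polymerases, POLE2 and POLE3, small subunits of polymerase epsilon, fell, and the polymerase delta subunits tested did not pass. POLE2 had signals of 75.0, 154 and 119 on the 8-oxoguanine arrays, against 205, 195 and 260.1 on the mock arrays. The arrays were apart but widely spread, with a log2 fold change of -0.97 (SE 0.26, adjusted p = 0.0358). Its call was lost without 8-oxoguanine replicate 1 (adjusted p = 0.0903) or 3 (0.0656) without mock replicate 1 (0.0706), 2 (0.0557) or 3 (0.115), without the filter (0.0772) and without the intensity trend of the test (0.0652). POLE3, a histone-fold subunit, had signals of 637, 610 and 596 on the 8-oxoguanine arrays, against 797, 809 and 844 on the mock arrays, a small change with little spread at -0.41 (SE 0.079, adjusted p = 0.00882). POLE, the catalytic subunit, overlapped, with 150.4, 174 and 228 on the 8-oxoguanine arrays, against 163, 199 and 206 on the mock arrays and a log2 fold change of -0.053 (SE 0.19, adjusted p = 0.894). PRIM1, the catalytic primase subunit, had signals of 167, 162 and 184 on the 8-oxoguanine arrays, against 242, 232 and 233 on the mock arrays. These did not overlap, yet its adjusted p missed the threshold (0.051) at a log2 fold change of -0.46 (SE 0.14), and it passed with median centring (0.0425), quantile normalization (0.0442) or no intensity trend (0.0245). POLA1, the catalytic subunit of polymerase alpha, was at -0.32 (SE 0.20, adjusted p = 0.333), and its groups did not overlap. Its partner POLA2 was at -0.90 (SE 0.37, adjusted p = 0.137) with treated signals between 39.8 and 117, and its groups overlapped. The treated mean of POLA2, 79.0, was under the filter limit, and the change was -0.41 with dim signals raised to that limit. The polymerase delta subunits POLD1 and POLD2 were at -0.090 (SE 0.17) and -0.071 (SE 0.13). PRIM2, the large primase subunit, was under the filter, with 98.3, 90.5 and 51.8 on the 8-oxoguanine arrays, against 83.2, 93.6 and 38.3 on the mock arrays, which overlapped. POLD3, a further polymerase delta subunit, had no probe set of its own at 12 h.

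In the clamp step, PCNA, LIG1, FEN1 and UNG fell, and the clamp loader and the single-strand binding protein did not pass. PCNA, the ring that holds the polymerases on DNA, had signals of 457, 501 and 489 on the 8-oxoguanine arrays, against 738, 1129 and 885 on the mock arrays. Its treated arrays were close together, against a wide spread among the mock arrays, with means of 482 ± 22.9 in 8-oxoguanine cells and 918 ± 197 in mock cells (SD, n = 3 each), and the log2 fold change was -0.91 (SE 0.14, adjusted p = 0.00307). LIG1, the ligase that seals Okazaki fragments, had signals of 98.3, 88.1 and 91.3 on the 8-oxoguanine arrays, against 169, 199 and 165 on the mock arrays, a log2 fold change of -0.94 (SE 0.18, adjusted p = 0.00896). Its treated mean of 92.6 was under the filter limit, and the change was -0.89 with dim signals raised to that limit. FEN1, the flap nuclease of the same pathway, had signals of 328, 302 and 385 on the 8-oxoguanine arrays, against 457, 435 and 529 on the mock arrays, a log2 fold change of -0.49 (SE 0.13, adjusted p = 0.0318). UNG, the glycosylase that removes uracil from new DNA, had signals of 165, 188 and 168 on the 8-oxoguanine arrays, against 313, 226 and 239.5 on the mock arrays, a log2 fold change of -0.57 (SE 0.16, adjusted p = 0.0467). Both were apart between the groups and near the threshold. FEN1 lost its call without 8-oxoguanine replicate 1 (adjusted p = 0.105) or 2 (0.118) and without mock replicate 1 (0.0647) or 3 (0.11), without the filter (0.0573) and without the intensity trend (0.0597). UNG lost its call without 8-oxoguanine replicate 1 (0.139), 2 (0.0824) or 3 (0.0946) and without mock replicate 1 (0.144) or 3 (0.0809), with median centring (0.0516), without the filter (0.0872), without the intensity trend (0.0527) and with the extract number as a block (0.0885).

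CHAF1A, a subunit of the chromatin assembly factor that PCNA recruits, had signals of 170.1, 199 and 137 on the 8-oxoguanine arrays, against 241, 242 and 249.9 on the mock arrays. RNASEH2A, which removes RNA primers, had signals of 363, 421 and 464 on the 8-oxoguanine arrays, against 500.3, 539 and 585 on the mock arrays. Neither overlapped and neither passed, at -0.55 (SE 0.16, adjusted p = 0.0533) and -0.39 (SE 0.12, adjusted p = 0.056). CHAF1A passed without 8-oxoguanine replicate 2 (0.0484), and RNASEH2A without 8-oxoguanine replicate 3 (0.04). The 3 subunits of the single-strand binding protein had small changes, RPA1 at -0.26 (SE 0.093), RPA3 at -0.21 (SE 0.12) and RPA2 at -0.16 (SE 0.087). RPA1 (adjusted p = 0.0941) and RPA2 (0.258) did not overlap between the groups, and RPA3 (0.29) did. Of the clamp loader, RFC5 was at -0.39 (SE 0.17, adjusted p = 0.156), and its groups did not overlap. RFC2 at -0.19 (SE 0.21), RFC4 at -0.12 (SE 0.15) and RFC3 at -0.087 (SE 0.10) overlapped. RFC3 had the smallest change of the step, with signals of 455, 403 and 477 on the 8-oxoguanine arrays, against 458, 461 and 497 on the mock arrays. RFC1, the large subunit, was the gene whose treated arrays all lay above the mock arrays, with 345, 351 and 355 on the 8-oxoguanine arrays, against 295, 267 and 331 on the mock arrays, and it did not pass at 0.24 (SE 0.12, adjusted p = 0.211). CHAF1B, the partner of CHAF1A, was under the filter, with 76.1, 39.2 and 41.4 on the 8-oxoguanine arrays, against 86.9, 57.2 and 99.5 on the mock arrays, which overlapped.

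The genes of nucleotide supply had the lowest median of the 5 steps, -0.73, and 4 of the 5 fell. The other medians were -0.52 for the helicase step, -0.37 for the polymerases, -0.32 for the clamp step and -0.30 for licensing, and the differences between steps were not tested. RRM2, the small subunit of ribonucleotide reductase that is made in S phase, had signals of 746, 772 and 855 on the 8-oxoguanine arrays, against 1689, 1943 and 1794 on the mock arrays. The means were 791 ± 57.3 in 8-oxoguanine cells and 1808 ± 128 in mock cells (SD, n = 3 each), far apart against their spread, and the log2 fold change was -1.19 (SE 0.086, adjusted p = 5.68e-05), with the smallest adjusted p of the 40 genes. RRM1, the large subunit, had signals of 613, 588 and 614 on the 8-oxoguanine arrays, against 857, 936 and 767 on the mock arrays, a log2 fold change of -0.49 (SE 0.093, adjusted p = 0.00823). TYMS, thymidylate synthase, had signals of 1003, 980.4 and 1161 on the 8-oxoguanine arrays, against 1913, 2026 and 1874 on the mock arrays, a log2 fold change of -0.89 (SE 0.084, adjusted p = 0.000263). TK1, the thymidine kinase of dividing cells, had signals of 298, 263 and 257 on the 8-oxoguanine arrays, against 458, 436 and 457 on the mock arrays, a log2 fold change of -0.73 (SE 0.11, adjusted p = 0.0025). These 3 had treated signals close together and below every mock array. DUT, the enzyme that breaks down dUTP, overlapped, with 211, 260.3 and 258 on the 8-oxoguanine arrays, against 242, 244 and 280.4 on the mock arrays and a log2 fold change of -0.075 (SE 0.14, adjusted p = 0.787). That value rests on 1 probe set, a dim one for this gene. On the 6 h mock array it had 457, against 3396 for the DUT probe set used at 6 h.

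Of the 16 genes that fell, 12 kept their call under each of the 15 alternatives that tested them. They were CDC6, GMNN, MCM2, MCM3, GINS2, POLE3, PCNA, LIG1, RRM1, RRM2, TYMS and TK1. With the filter at the 60th percentile, CDC6, GINS2 and LIG1 were among those not tested. POLE2, FEN1, UNG and MCM5 lost theirs as given above. The count of members that fell was 12 to 18 over the alternatives, and none rose in any.

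**Figure D3:**
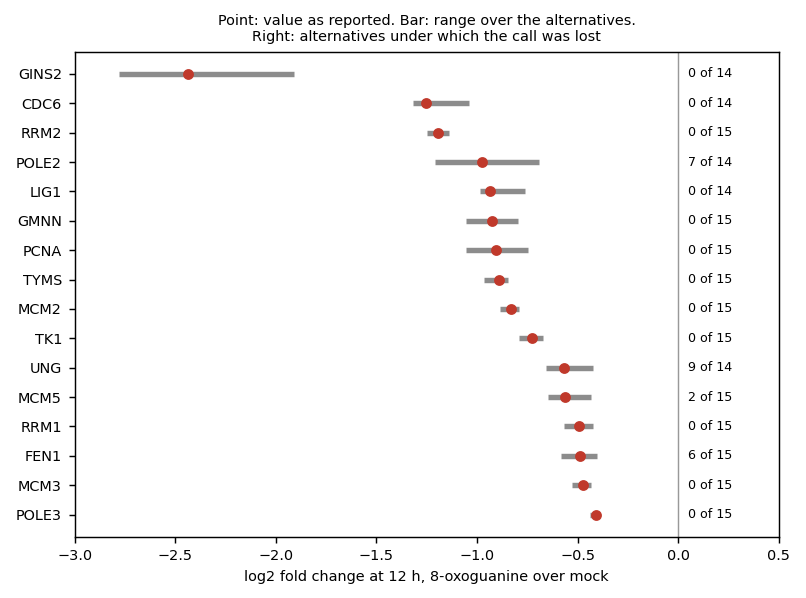
Log2 fold change of 8-oxoguanine over mock at 12 h for the 16 genes that fell, with the value as reported (point), its range over the alternatives (bar) and, at the right, under how many of the alternatives that tested the gene its call was lost. POLE2 lost it under 7, UNG under 9, FEN1 under 6 and MCM5 under 2, and no bar reaches 0.

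Of 66 other genes of DNA replication and its control, 41 were on the 12 h array and 33 passed the filter. Of these, 3 fell and none rose, and 30 did not pass, with a median of -0.15. The share that fell is near the 6.64% of all named genes tested. At an unadjusted p under 0.05 the counts were 4 lower and 2 higher, against 14% lower and 14.7% higher among all named genes tested. NME1, a nucleoside diphosphate kinase, was at -0.47 (SE 0.076, adjusted p = 0.00382), CDK2, the kinase of S phase entry, at -0.42 (SE 0.10, adjusted p = 0.0218), and TOP1, topoisomerase I, at -0.30 (SE 0.074, adjusted p = 0.0267). E2F1, the transcription factor, had signals of 106, 123 and 125 on the 8-oxoguanine arrays, against 137, 191 and 151 on the mock arrays. These did not overlap and did not pass, at -0.43 (SE 0.20, adjusted p = 0.18). E2F3 at -0.20, E2F4 at -0.11, TFDP1 at -0.21 and RB1 at -0.15 overlapped and did not pass. The count of falls was 1 without any single 8-oxoguanine replicate, mock replicate 1 or mock replicate 3, and 1 gene rose without 8-oxoguanine replicate 1. Under the filter, CDC25A, CCNE2, E2F5 and CHEK1 had every 8-oxoguanine array below every mock array. HUS1 had every one above, and CLSPN, RECQL4 and POLH overlapped. Such separation was counted only among the named genes tested, 16.6% lower and 17.2% higher. Fitted without the filter, the list again held 3 falls and no rise.

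At 6 h the replication genes as a group lay close to the rest of the array, and whether they lay below 0 depended on the scaling. A single array was run for each treatment, so these ratios have neither a replicate check nor a test. Of the 52 genes, 50 had a mean log2 signal at the 50th percentile of the arrays or higher, a signal of 148, and ORC1 and CHAF1B were under it. Their median log2 ratio was -0.096, against -0.020 for all named genes kept. The ratio was below 0 for 35 of the 50, where 52.7% of all named genes kept were below 0. Centring each array on its median left 23 of the 50 below 0 and a median of 0.019, and gave all probe sets kept a median of 0.083, against -0.032 uncentred. Quantile normalization left 27 below 0 and a median of -0.011, and gave all probe sets kept a median of 0.02. The median of the members was below that of all probe sets kept, both uncentred and with quantile normalization. Median centring moves both medians by the same amount, so it could not change their order. Shares of all genes below 0 were not counted for the centred or quantile-normalized values. The fibroblast markers summed to 101145 on the 8-oxoguanine array and 54580 on the mock array, with 6 of 10 brighter by 1.5-fold or more on the treated array, and the part of this difference in the ratios was not tested. Ratios of 1.5-fold or more were found for 3 genes on the low side, where 4.44% of all named genes kept lay, and for 1 gene on the high side, where 2.97% lay.

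The lowest ratio was that of GINS1, a GINS subunit, with 687 on the 8-oxoguanine array and 1154 on the mock array (log2 ratio -0.75). PRIM2 followed with 334 on the 8-oxoguanine array and 545 on the mock array (log2 ratio -0.71). Probe sets that its near copy PRIM2BP shares were not used. MCM4, a ring subunit, had 881 on the 8-oxoguanine array and 1436 on the mock array (log2 ratio -0.70), but its other 3 probe sets were at -0.26, -0.12 and 0.063, so the low value was that of 1 probe set. UNG had 317 on the 8-oxoguanine array and 452 on the mock array (log2 ratio -0.51). The highest ratio was that of POLD1, the catalytic subunit of polymerase delta, with 822 on the 8-oxoguanine array and 518 on the mock array (log2 ratio 0.67). RFC1 had 672 on the 8-oxoguanine array and 535 on the mock array (log2 ratio 0.33), and its other probe set above the filter was at -0.031. POLD2 had 1225 on the 8-oxoguanine array and 1048 on the mock array (log2 ratio 0.23), and CDC45 had 485 on the 8-oxoguanine array and 417 on the mock array (log2 ratio 0.22). CDC45 was thus measured well above the filter limit on the 6 h arrays. Of the members with no probe set of their own at 12 h, GINS1 and MCM4 are given above, and GINS3 was at -0.29, CDT1 at 0.084, MCM7 at 0.00 (its other probe set at 0.55), MCM10 at -0.006 and POLD3 at -0.27.

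Among the 16 genes that fell at 12 h, the 6 h ratio was below 0 for 11 and above 0 for 5, and none reached 1.5-fold. With median centring 7 were below 0 and 9 above, and with quantile normalization 9 below and 7 above. RRM2 had 4008 on the 8-oxoguanine array and 3575 on the mock array at 6 h (log2 ratio 0.17), and TYMS 5084 on the 8-oxoguanine array and 4419 on the mock array (log2 ratio 0.20). With quantile normalization these ratios were 0.043 for RRM2 and 0.005 for TYMS. The other probe set of RRM2 was at -0.025. RRM1 was counted below 0 by its brightest probe set, at -0.37, and its other probe set was at 0.255. CDC6 was at -0.29 (its other probe set at -0.45), PCNA at -0.22 and GMNN at -0.15. The 40 genes kept at both times gave a Pearson correlation of -0.031 and a Spearman correlation of 0.011 between their 2 log2 changes, a description across genes that share arrays within each time. Time, array type and array number changed together, so no test between 6 h and 12 h was made. For 34 of the 40 genes the same probe set was read at both times.

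**Figure D4:**
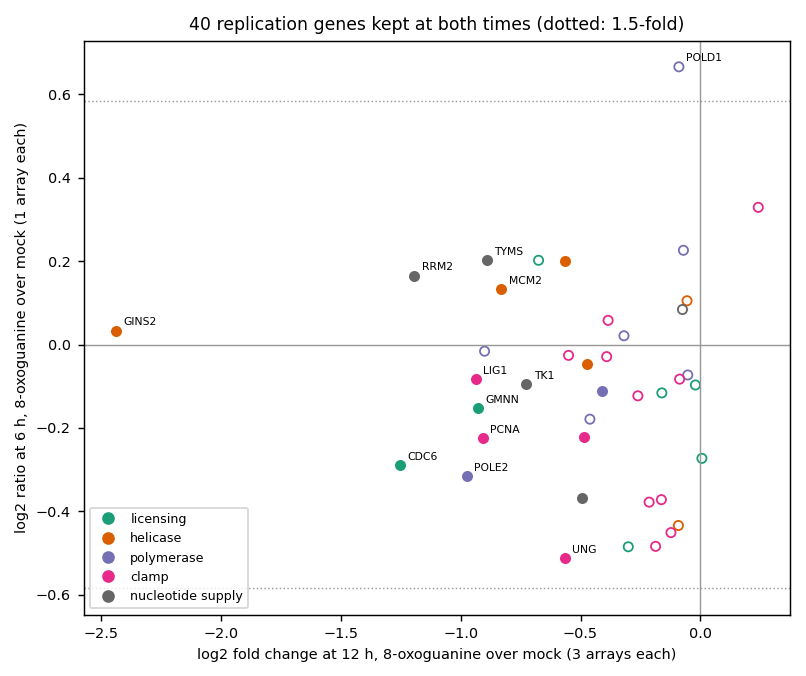
Log2 ratio at 6 h (1 array per treatment) against log2 fold change at 12 h (3 arrays per treatment), 8-oxoguanine over mock, for the 40 replication genes kept at both times, coloured by step and filled where the adjusted p at 12 h was under 0.05. The filled points run from -0.41 to -2.44 along the 12 h axis and stay inside the dotted 1.5-fold lines of the 6 h axis.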

How the data were processed

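Total RNA of MRC5 cells was labelled with biotin and hybridised to short-oligonucleotide arrays, of a larger type at 6 h and a smaller type at 12 h. The deposited value is a linear intensity for each probe set, computed by the authors with MAS5, as the submitters' processing notes name it. Which version and settings they used is not given in the sources used here. Trimmed array means of 500.1 to 500.5 show scaling to 1 level. Groups follow the treatment and time labels. The treatment protocol gives 6 h throughout, and the samples were grouped by the time label instead. Log2 of the intensity was taken, control probe sets were left out, and probe sets with a mean under the 40th percentile at 12 h (5248 kept) or the 50th at 6 h (11108 kept) were removed. At 12 h, limma 3.58.1 under R 4.3.3 gave two-sided p-values (lmFit, then eBayes with trend), which were adjusted by Benjamini-Hochberg over all probe sets kept with a threshold of 0.05. The 6 h ratio has no test. The fit was tested on simulated data. Names are those of the platform annotation, and all 131 listed genes found on the 6 h arrays carried the same symbol in the RefSeq table. The probe sets of ORC6 and, at 6 h, of RFC1, CHAF1A and DUT are of a kind that may cross-hybridise. No coordinates of probe sets are given, since no build is named. Members, lists and naming rule were chosen with earlier results of these data known. The rule names every member, gives each array for the genes past the threshold and for the gene of least change in each step, the 4 highest and 4 lowest ratios at 6 h, and up to 6 other replication genes past the threshold. E2F1, E2F3, E2F4, TFDP1, RB1 and the members near the threshold were added after their values were seen. Alternatives tried were a stricter filter or none, quantile normalization or median centring, a constant added before log2, no intensity trend, the extract number as a block, averaging the probe sets of each gene, leaving out each 12 h array, and, added after seeing the data, raising dim signals to the filter limit.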

Additional observations from a re-analysis of the deposited data

Results flagged for a closer look

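At 12 h, 23 members had every 8-oxoguanine array below every mock array. Their 6 h ratio was above 0 for 7 and below 0 for 16. Of all 6705 named genes kept at 6 h, 3169 were above 0 and 52.7% below 0. The members' share above 0 was thus no higher than that of named genes in general. No test was made of this change in sign, and the 6 h side rests on 1 array per treatment of another array type. With median centring of the 6 h arrays 13 of the 23 members were above 0, and with quantile normalization 11. Shares of all named genes were not counted for these scalings. The 7 do not include RFC5 and CHAF1A, at -0.029 and -0.026 on their brightest 6 h probe sets. On the probe sets read at 12 h, their 6 h ratios were 0.18 and 0.41. MCM2 had a log2 ratio of 0.13 at 6 h and a log2 fold change of -0.83 at 12 h. MCM5 had 0.20 and -0.56, GINS2 0.033 and -2.44, and RRM2 0.17 and -1.19. The other RRM2 probe set on the 6 h arrays was at -0.025, so its sign at 6 h depended on the probe set. TYMS had 0.20 and -0.89, and its 6 h ratio was 0.005 with quantile normalization. POLA1 (0.021 and -0.32) and RNASEH2A (0.058 and -0.39) did not pass at 12 h.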

How the results depend on the processing

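The count of members that fell at 12 h was 12 to 18 under the alternatives, against 16 as reported, and their median log2 fold change was between -0.46 and -0.38, against -0.40. With arrays left out in turn the count was 12 to 15 and the median -0.43 to -0.39. With the extract number as a replicate block 15 members fell, UNG losing its call (adjusted p = 0.0885), the median was -0.40 and 1 of the other replication genes rose. Deviations of same-numbered extracts from their group means correlated at 0.076, -0.15 and -0.050, so the numbers are not taken to pair the samples. Among the other replication genes 1 to 4 fell with arrays left out, against 3, and 0 to 1 rose, against 0. The median 6 h ratio of members turned to 0.019 with median centring. MCM4 at 6 h was at -0.26 with the mean of its probe sets. No called member turned its sign at 12 h. Of the uncalled, ORC3 turned with median centring (-0.009). With arrays left out, log2 fold changes that turned ran from -0.035 to 0.064 for ORC3, -0.14 to 0.038 for ORC5, -0.26 to 0.11 for DBF4, -0.22 to 0.082 for POLE, -0.13 to 0.025 for DUT, -0.22 to 0.006 for POLD1 and -0.14 to 0.058 for POLD2. The cause was not tested. A signal under 93.9 at 12 h has no firm size.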
